A study of Caenorhabditis elegans with 21 samples.

Results

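The intervals described here are stretches of the Caenorhabditis elegans X chromosome that the deposited small RNA table lists by coordinates and strand, with no gene identifier. The table holds 75393 features, of which 55259 are such intervals and 6583 of those lie on X. An X interval was kept where at least 1 read was counted on it in the sum of all 21 libraries, on either strand and at any length, which left 1691 of the 6583. On all chromosomes together 12094 intervals had a count, so the autosomes contributed 10403.

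Small RNAs were sequenced from whole L4 larvae grown at 15 °C on NA22 bacteria, which every group shared. The groups were worms lacking dpf-3 (dpf-3 null, 3 libraries), worms with the S784A substitution in the DPF-3 protein (DPF-3 S784A, 3 libraries), mut-2(ne3370) worms (3 libraries), mut-7(ne4255) worms (3 libraries) and wild-type worms (9 libraries, lettered A to I). The labels name no strain for the wild type and do not say whether libraries of a group came from separate cultures, so a p-value here measures the spread between libraries, which may be technical. A library is a pool of whole animals, and fewer cells that make a small RNA cannot be told apart from less of it per cell.

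In C. elegans, RNA-dependent RNA polymerases copy targeted transcripts into short antisense RNAs that start with a 5′ triphosphate, and Argonaute proteins of the WAGO clade carry them. The mutator proteins are needed for much of this amplification: MUT-2 is a nucleotidyltransferase that extends the 3′ ends of target RNAs, and MUT-7 is related to 3′-to-5′ exonucleases. DPF-3 is a dipeptidyl peptidase of the family that removes N-terminal dipeptides, and the study's title concerns the processing of Argonautes by proteases. Transposons, repeats and pseudogenes are common targets of this pathway in the worm germline, and the X chromosome is known for its repressed state there.

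Depth varied, and the wild-type libraries formed 2 sets. These are given apart, except for some counts, shares and bounds that take all 9 libraries together. Reads assigned to a feature numbered 137185 to 224503 in dpf-3 null worms, 62715 to 113444 in DPF-3 S784A worms, 40693 to 49934 in mut-2 worms, 60226 to 100173 in mut-7 worms, 233040 to 472767 in wild type A–F and 300211 to 583038 in wild type G–I. The share of reads in the table that fell in no feature averaged 79.0%, 82.2%, 90.3% and 86.1% in dpf-3 null, DPF-3 S784A, mut-2 and mut-7, against 69.0% in wild type A–F and 53.5% in wild type G–I. Small RNA reads on the dpf-3 gene itself came to 8.84 ± 4.12 CPM in dpf-3 null (SD, n = 3), against 115 ± 22.1 CPM in wild type A–F (n = 6) and 74.6 ± 6.66 CPM in wild type G–I (n = 3), with a log2 fold change of −3.23 (edgeR adjusted p = 1.04e-11). For mut-2 and mut-7 the labels name alleles, and small RNA reads on those genes do not check them. CPM here means counts scaled to 1000000 per library after edgeR's TMM factors, which brought the effective library size to 0.542 of the feature counts in wild type A–F, 0.845 in wild type G–I, 0.994 in dpf-3 null worms, 0.967 in DPF-3 S784A worms, 1.51 in mut-2 worms and 1.57 in mut-7, so a CPM level is set partly by that scaling. Small RNA reads on 17 marker genes of germline, sperm, muscle, intestine, neurons and hypodermis summed to 2128 to 2236 CPM in dpf-3 null worms, 2693 to 3375 in DPF-3 S784A worms, 1471 to 2044 in mut-2 worms and 1081 to 1224 in mut-7, against 2303 to 2786 in wild type A–F and 1941 to 2072 in wild type G–I. The germline genes glh-1 and pgl-1 made up most of that sum, and other markers moved apart. Reads on unc-54, a muscle myosin gene, averaged 138 ± 1.17 CPM in dpf-3 null worms, 475 ± 172 in DPF-3 S784A worms, 4.19 ± 7.26 in mut-2 worms and 7.71 ± 6.76 in mut-7, against 267 ± 48.2 CPM in wild type A–F and 57.6 ± 11.5 in wild type G–I (SD). The yolk protein genes vit-2 and vit-6 had 69.9 ± 7.12 and 83.2 ± 13.8 CPM in wild type G–I, against 4.67 ± 5.49 and 2.40 ± 2.78 in wild type A–F, and at most 5.84 CPM on average in any mutant. The sperm protein genes msp-10 and msp-19 had 29.6 ± 12.1 and 23.2 ± 15.3 CPM in wild type G–I, against 1.71 ± 2.77 and 0 in wild type A–F, whereas the neuronal gene egl-21 had 37.3 ± 4.22 CPM in wild type G–I, against 193 ± 19.05 in wild type A–F. The other sperm gene of the list, spe-9, did not share the msp pattern, at 12.6 ± 16.4 CPM in wild type A–F and 7.28 ± 7.95 in wild type G–I. Such reads report small RNAs against a gene and not its mRNA, and the part of these shifts in the results below was not tested.

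The X chromosome held 12.41% of the bases covered by intervals and 9.159% of the counts on intervals. It had 46.15 counts per kb of interval, against 126.8 on chromosome V, the highest, and 23.42 on chromosome III, the lowest. A count was seen on 25.69% of the X intervals, the largest share of the 6 chromosomes, which ranged down to 18.99% on chromosome III. The 1691 X intervals carried 67634 counts in all, and 648 of them carried a single count. Their median length was 218 bases (range 11 to 11157), against a median of 126 bases for the 4892 X intervals without a count.

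The counts were concentrated in few intervals. The 12 with the most counts held 39.1% of the X total and the 20 with the most held 49.5%. Intervals of 1000 bases or more were 116 of the 1691 and held 52.3% of the counts, whereas the 772 intervals under 200 bases held 18.3%. The plus strand carried 71.6% of the counts on 949 intervals and the minus strand 28.4% on 742. By the Ensembl WBcel235 annotation, 862 intervals were intergenic (27474 counts), 718 lay within or across an intron (13630 counts) and 111 overlapped an exon (26530 counts).

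Of the 111 exon intervals, 69 overlapped a gene that is no row of the table, and these held 89.7% of the counts on exon intervals. Where an exon interval overlapped a single gene, 73 of 100 had the strand of the gene, with 98.3% of the counts. Among intronic intervals with a single gene, 369 of 708 had the strand of the gene, with 46.4% of the counts. The strand setting of the authors' counting is not given in the sources used here, so the strand in an interval's name is that of the feature and not of the reads.

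The 12 X intervals with the highest level in wild type were mostly long, 10 of them over 1000 bases. The highest was X:16451872-16455957:+, 4086 bases over an exon of the protein-coding gene F38E9.4. It had 586, 566 and 481 CPM in dpf-3 null worms, 811, 835 and 804 CPM in DPF-3 S784A worms, 84.5, 12.6 and 63.1 CPM in mut-2 worms and 31.5, 0 and 0 CPM in mut-7. Wild type A–F ranged over 2447 to 3301 CPM (median 2811), and wild type G–I had 1157, 906 and 1122 CPM. Every mutant library was below every wild-type library. The longest interval, X:9191835-9202991:+ with 11157 bases over exons of Y81B9A.1 and Y81B9A.5, had 243, 240 and 277 CPM in dpf-3 null worms, 324, 434 and 411 CPM in DPF-3 S784A worms, 84.5, 75.5 and 94.7 CPM in mut-2 worms and 73.5, 37.9 and 66.5 CPM in mut-7. The A–F wild-type libraries had 1595 to 2028 CPM (median 1699), and the G–I libraries 2013, 2186 and 1989 CPM. Of the 67 intervals tested one by one, it was the only one called higher in wild type G–I than in A–F on the TMM scaling. Also among the 12 intervals with the highest wild-type level, X:17703958-17712130:- (8173 bases, an exon of H11L12.1) had log2 fold changes of −2.20 for dpf-3 null worms, −1.84 for DPF-3 S784A worms, −4.09 for mut-2 worms and −4.06 for mut-7 worms. The intergenic X:15397518-15400802:+, X:7345799-7347699:+ and X:2004953-2008238:+, with X:7361115-7364110:+ over an exon of the pseudogene WBGene00015562 and X:17117379-17118496:+ over an exon of K09E3.2, had log2 fold changes of −3.19 to −2.35 in dpf-3 null and −2.65 to −1.65 in DPF-3 S784A, all called (edgeR). These 5 kept 2 to 8 counts each over the mut-2 libraries and 1 or 2 over the mut-7 libraries. Per kb of length the highest levels were at short intervals. The 191-base interval on the opposite strand to an intron of srd-50, which belongs to a family of predicted chemoreceptor genes, averaged 4059 CPM per kb in wild type A–F, the highest there, and 1651 CPM per kb in wild type G–I. In G–I the 96-base X:1654438-1654533:+ was above it at 1727 CPM per kb, beside 2230.5 in A–F.

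The question for each mutant was whether small RNAs on the X intervals differed from wild type. The X intervals took a smaller share of the counted reads in each of the 4 mutants. The share of feature counts was 0.869%, 0.853% and 0.907% in dpf-3 null worms, 1.10%, 1.24% and 1.16% in DPF-3 S784A worms, 0.870%, 0.849% and 0.755% in mut-2 worms and 0.349%, 0.403% and 0.479% in mut-7, against 1.76% to 1.86% in wild type A–F (median 1.82%) and 1.56%, 1.49% and 1.53% in wild type G–I. No mutant library overlapped a wild-type library. Against all 9 wild-type libraries (1.72% ± 0.149), the mean fell to 0.876% ± 0.0277 in dpf-3 null worms, 1.17% ± 0.0666 in DPF-3 S784A worms, 0.825% ± 0.0615 in mut-2 worms and 0.410% ± 0.0653 in mut-7 (SD, n = 3 each). Each difference had p = 0.00909 in a two-sided exact permutation test, the smallest value that 220 splits allow, and the same after Benjamini-Hochberg adjustment over 8 tests of shares. The splits took no account of the wild-type sets, whose shares did not overlap. Against wild type A–F alone each comparison had p = 0.0238 in the exact permutation test, the smallest value that 84 splits allow. Against wild type G–I alone, with 3 libraries on each side, the exact permutation test cannot go below p = 0.10, the value each comparison reached.

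**Figure D1:**
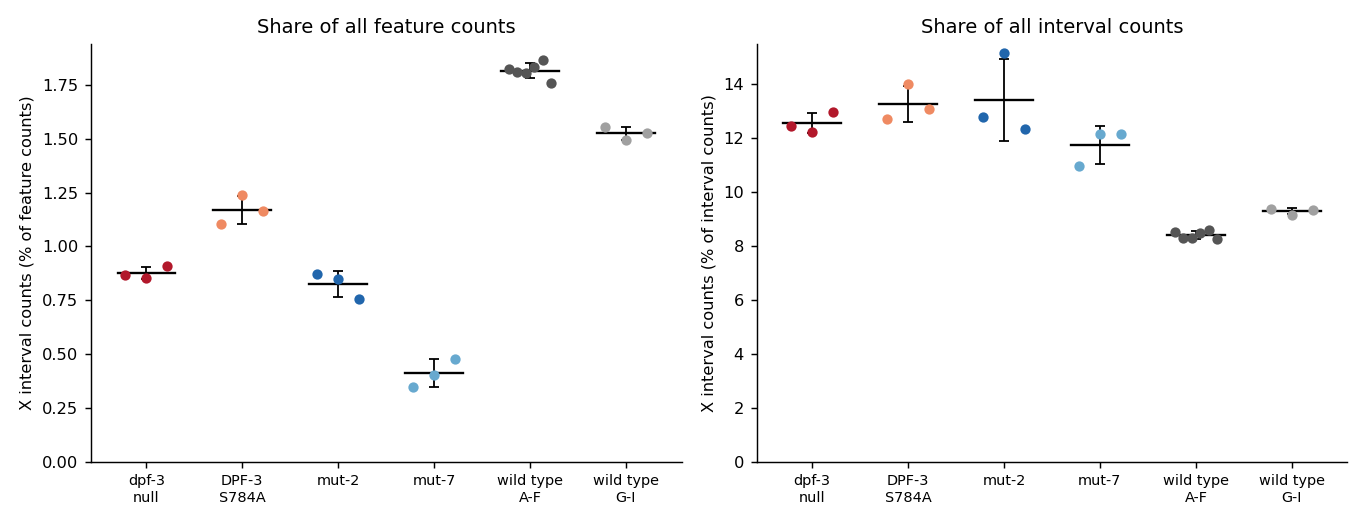
Counts on X intervals as a percentage of all feature counts (left) and of all interval counts (right), 1 point per library with the group mean and SD, for dpf-3 null, DPF-3 S784A, mut-2 and mut-7 (n = 3 each), wild type A–F (n = 6) and wild type G–I (n = 3). On the left the highest mutant library has 1.24% and the lowest wild-type library 1.49%; on the right the lowest mutant library has 10.9% and the highest wild-type library 9.35%.

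Within the reads on intervals, X took a larger share in the mutants: 12.5% ± 0.367 in dpf-3 null worms, 13.2% ± 0.669 in DPF-3 S784A worms, 13.4% ± 1.51 in mut-2 worms and 11.7% ± 0.694 in mut-7 (SD, n = 3 each), against 8.39% ± 0.147 in wild type A–F (n = 6) and 9.27% ± 0.107 in wild type G–I (n = 3). All 4 differences from the 9 wild-type libraries had an exact permutation p of 0.00909 and an adjusted p of 0.00909. In mut-2 and mut-7 this rested on a single interval, the 435-base X:17578693-17579127:- described below. Without it the X share of interval counts was lower than in wild type, by 2.47 percentage points in mut-2 worms and 1.45 in mut-7 (adjusted p = 0.00909 each, exact permutation), whereas in dpf-3 null and DPF-3 S784A it stayed higher by 2.88 and 3.47 points. The interval was left out after its values were seen, for its rise, while autosomal intervals called higher stayed in the denominator. The p-values without it are thus no test of X as a whole. Chromosome V, the largest holder of interval counts, moved in the other direction: its share of them was 34.7% ± 1.2 in dpf-3 null worms, 37.2% ± 0.587 in DPF-3 S784A worms, 12.4% ± 3.72 in mut-2 worms and 15.0% ± 1.41 in mut-7, against 47.7% ± 0.513 in wild type A–F and 47.5% ± 0.538 in wild type G–I. The rise was not particular to X. Chromosome I held 15.56%, 13.97%, 23.34% and 21.25% in dpf-3 null, DPF-3 S784A, mut-2 and mut-7. Its wild-type share was 10.81% in A–F and 10.65% in G–I. Chromosome IV held 18.57%, 18.06%, 34.04% and 30.18% in the same order, against 16.56% in A–F and 15.97% in G–I. Chromosome II was also above both sets in all 4 mutants, and chromosome III in dpf-3 null and mut-7 only. With chromosome V left out of the denominator, the X share was lower than in wild type by 1.32 points in mut-2 (adjusted p = 0.0636, exact permutation) and by 2.78 points in mut-7 (adjusted p = 0.0104).

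Single intervals were tested with edgeR's quasi-likelihood test, and a call means a Benjamini-Hochberg adjusted p under 0.05 over 5038 features. The filter on low counts left 67 of the 1691 X intervals, with 75.6% of the X counts; the other 1624, with at most 187 counts each, were not tested one by one. Keeping intervals that pass this filter through their wild-type counts alone favours falls among those tested, so the counts of calls below describe the tested intervals and no others. Changes are against the mean of the 2 wild-type sets unless a set is named.

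In dpf-3 null, 52 of the 67 were lower and 10 higher, where 26.2% of all tested features were lower and 26.1% higher. In DPF-3 S784A, 51 were lower and 10 higher, where 23.9% of all features were lower and 14.8% higher. In mut-2, 60 were lower and 1 higher, against 33.2% lower and 18.8% higher among all features. In mut-7, 64 were lower and 1 higher, against 35.3% lower and 29.3% higher. Among the 428 tested intervals on autosomes, 83.6%, 79.9%, 90.2% and 89.5% were lower in dpf-3 null, DPF-3 S784A, mut-2 and mut-7, beside 77.6%, 76.1%, 89.6% and 95.5% on X; this difference was not tested.

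All 4 mutants were set against the same wild-type libraries, and their values are given side by side. The median log2 fold change over the 67 was −2.56 in dpf-3 null worms and −2.11 in DPF-3 S784A, where the median over all features was 0.20 and 0.08. In mut-2 and mut-7 the fitted medians were −5.07 and −6.53, where the median over all features was 0.01 and 0.14. As 22 of the 67 had no count in any mut-2 library and 26 none in any mut-7 library, those medians depend on the fit's prior count; with these intervals set at 3 counts over the group, the medians were −3.90 and −4.56. At 3 or fewer counts over a group stood 7 of the 67 in dpf-3 null worms, 6 in DPF-3 S784A worms, 50 in mut-2 worms and 51 in mut-7. Summed over the 67, the level was 5704 ± 203 CPM in dpf-3 null worms, 7412 ± 603 in DPF-3 S784A worms, 4193 ± 562 in mut-2 worms and 1724 ± 343 in mut-7, against 25358 ± 1104 CPM in wild type A–F and 14463 ± 267 in wild type G–I. The 1624 untested intervals, summed, had 3111 ± 72.8, 4667 ± 174, 1261 ± 110 and 899 ± 137 CPM in dpf-3 null, DPF-3 S784A, mut-2 and mut-7, against 8165 ± 296 CPM in wild type A–F and 3587 ± 98.4 in wild type G–I; here DPF-3 S784A lay above wild type G–I.

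Most falls held against each wild-type set. Against wild type A–F alone, 54 of the 67 were lower and 6 higher in dpf-3 null, where 27.2% and 21.9% of all features were. In DPF-3 S784A 52 were lower and 5 higher against A–F, beside 24.7% and 10.7% of all features. In mut-2 the counts against A–F were 62 lower and 1 higher, beside 32.7% and 19.1%, and in mut-7 they were 65 lower and 0 higher, beside 34.5% and 29.2%. Against wild type G–I alone, 51 were lower and 13 higher in dpf-3 null (28.2% and 25.4% of all features), 47 and 14 in DPF-3 S784A (25.3% and 18%), 56 and 1 in mut-2 (33.7% and 18.1%) and 62 and 1 in mut-7 (35.4% and 26.3%). An X interval was lower against both sets in 51 cases in dpf-3 null worms, 47 in DPF-3 S784A worms, 56 in mut-2 worms and 62 in mut-7, beside 21%, 18.4%, 28% and 30.3% of all features. Every mutant library lay below every wild-type library in 50, 44, 58 and 63 of the 67, and in 21%, 19.3%, 29.2% and 30% of all features. The same 51 intervals were called lower in all 4 mutants, as were 22% of all features; the 4 comparisons share their wild-type libraries. Of the rises, 6 held against both sets in dpf-3 null worms and 5 in DPF-3 S784A, beside 12.3% and 6.47% of all features. Every library lay above every wild-type library in 6 cases in dpf-3 null worms and 6 in DPF-3 S784A, beside 10.6% and 7.23% of all features, and in 1 and 0 in mut-2 and mut-7, beside 11.8% and 17.1%. The 10 rises in DPF-3 S784A became 6 without wild-type library B and 12 without library H.

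**Figure D2:**
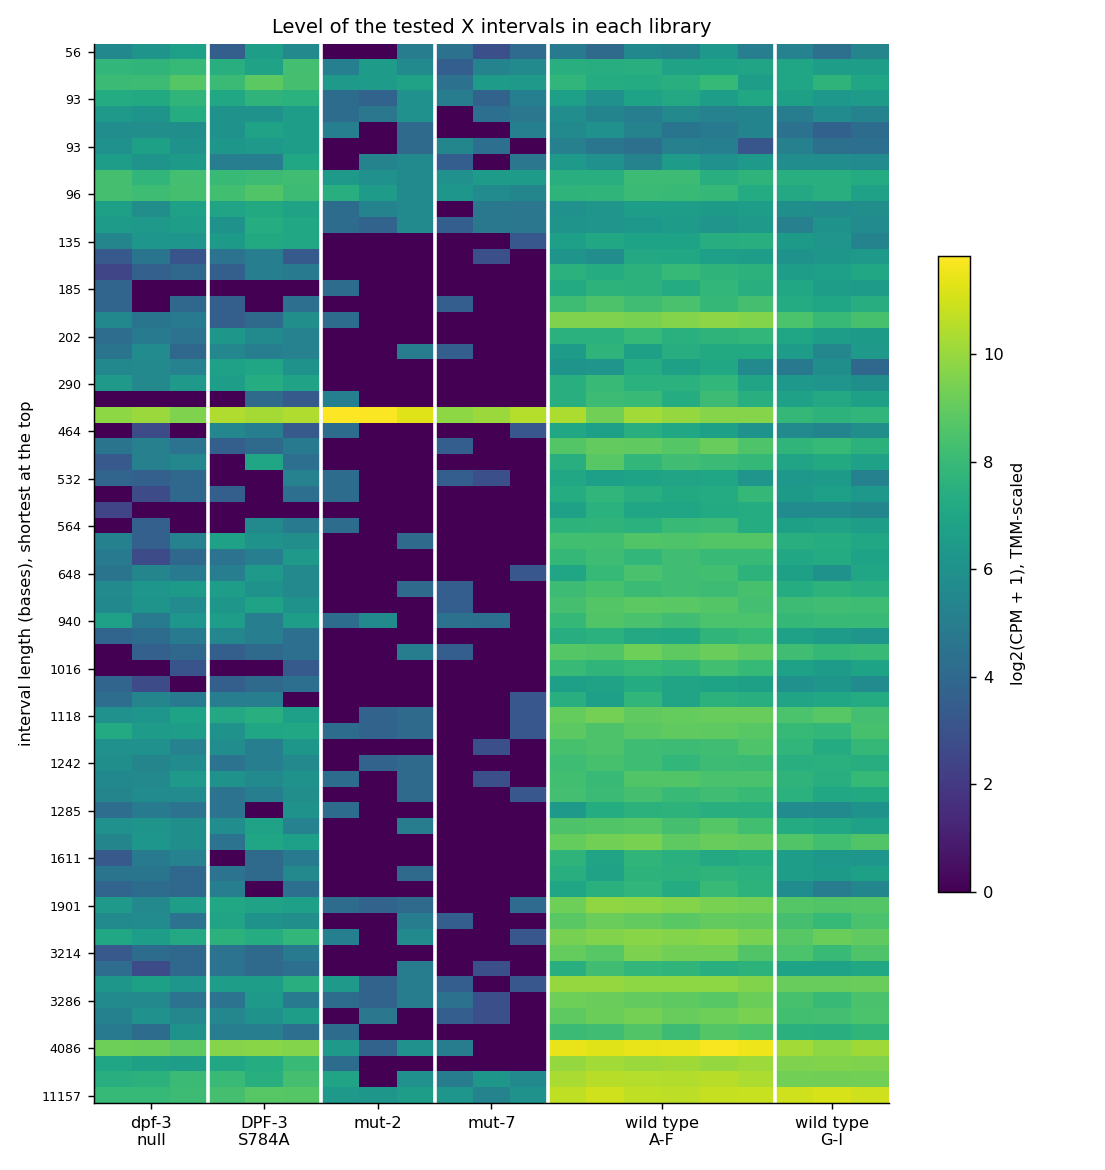
Level of the 67 tested X intervals as log2(CPM + 1) in each of the 21 libraries, with rows sorted by interval length from 56 bases at the top to 11157 at the bottom and some of the lengths printed beside the rows. The wild-type columns at the right are bright in nearly all rows, the mut-2 and mut-7 columns are mostly dark below the shortest rows apart from the 435-base interval and a few of the longest, and the rows under 100 bases stay bright in the dpf-3 null and DPF-3 S784A columns.

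The long intervals fell in every mutant. All 30 tested X intervals of 1000 bases or more were lower in each of the 4 mutants, where 26.2%, 23.9%, 33.2% and 35.3% of all features were. Their median log2 fold change was −2.69 in dpf-3 null worms and −2.28 in DPF-3 S784A. For the mutators mut-2 and mut-7, with the intervals at 0 set at 3 counts over the group, it was −4.49 and −5.69. Of the 242 tested autosomal intervals of that length, 215, 211, 231 and 231 were lower in dpf-3 null, DPF-3 S784A, mut-2 and mut-7. Their median was −2.43 in dpf-3 null worms and −2.09 in DPF-3 S784A, so the fall was not particular to X. The class of 1000 bases or more took 28.6% ± 0.101 of the X counts in dpf-3 null worms, 29.0% ± 1.14 in DPF-3 S784A worms, 9.46% ± 4.56 in mut-2 worms and 9.37% ± 1.49 in mut-7, against 56.7% ± 2.74 in the 9 wild-type libraries (exact permutation p = 0.00909, adjusted p = 0.0100 over 32 class tests, no overlap). Without the 435-base interval these shares were 31.9%, 32.6%, 21.8% and 16.3%, against 58.0% in wild type. In wild type the share with that interval kept was 55.0% in A–F and 60.2% in G–I. Shares of one total are bound to each other, so a lower share of the long class raises the others.

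**Figure D3:**
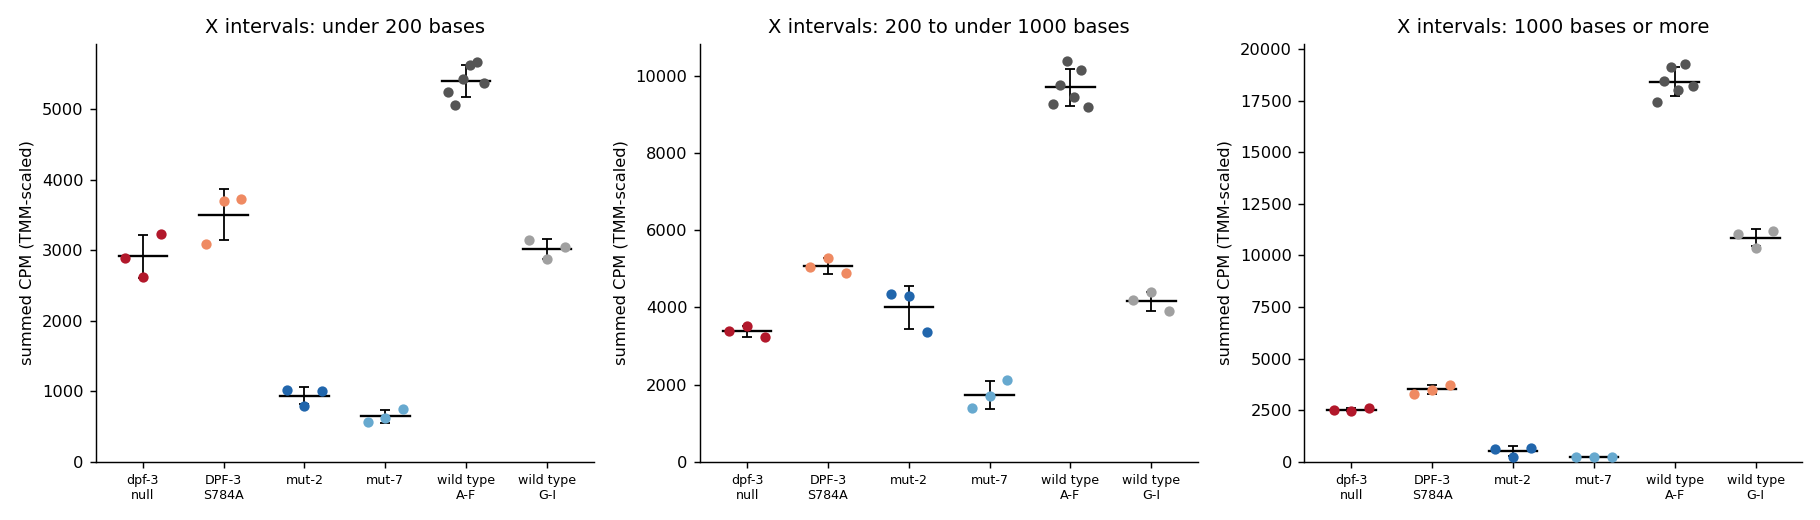
Summed level of all X intervals with a count, split into intervals under 200 bases (772), 200 to under 1000 bases (803) and 1000 bases or more (116), as TMM-scaled CPM per library with group mean and SD. The longest class has 2466 to 2601 CPM in dpf-3 null worms and 234 to 249 CPM in mut-7, against 17442 to 19301 CPM in wild type A–F; in the shortest class dpf-3 null has 2620 to 3227 CPM and DPF-3 S784A 3082 to 3730 CPM, near wild type G–I and below wild type A–F.

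The steepest falls in the protease mutants were at intervals of 185 to 3214 bases. The 336-base intergenic interval X:128210-128545:+ had no count in any dpf-3 null library and 0, 16.1 and 9.35 CPM in DPF-3 S784A. Levels in wild type A–F were 160 to 276 CPM (median 217), and in wild type G–I 109, 142 and 103 CPM. In dpf-3 null it was thus at least 28.8-fold lower than the 9 wild-type libraries together, taking 3 counts over the group as the floor. Against wild type G–I alone it was at least 20.2-fold lower, and against A–F alone at least 38.8-fold. Bounds and ratios below are also against the 9 libraries together unless a set is named. In DPF-3 S784A, with 2 counts, the ratio was 21.2-fold (95% interval from counting error alone, 5.82 to 176). It was at least 20.2-fold lower in mut-7, where it also had no count.

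A pair of intervals in introns of F23A7.5, on the strand of that gene, fell in parallel. X:16231745-16234958:+, 3214 bases long, had 9.01, 17.2 and 14.6 CPM in dpf-3 null worms and 21.6, 16.1 and 28.0 CPM in DPF-3 S784A. Wild type A–F ranged over 392 to 714 CPM (median 580), and wild type G–I had 354, 260 and 378 CPM. Its log2 fold change was −5.0 ± 0.30 (SE) in dpf-3 null (edgeR adjusted p = 3.83e-43) and −4.22 ± 0.35 in DPF-3 S784A (adjusted p = 1.53e-25). It had no count in mut-2 or mut-7, which makes it at least 30.5-fold and at least 56.4-fold lower there. Against wild type G–I alone these bounds were 23.2-fold and 42.8-fold. Its 1016-base neighbour X:16234996-16236011:+ had 1 count in all of dpf-3 null and 1 in all of DPF-3 S784A, against 395 in the 9 wild-type libraries. The gene's own row of the table had 2 counts in dpf-3 null worms, 1 in mut-7 worms and 0 in every other group, so the wild-type reads in this locus were on the intervals and not on the annotated gene.

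Other steep falls in the protease mutants lay at both kinds of site. The intergenic X:125694-126699:- had 0, 11.4 and 14.6 CPM in dpf-3 null, against 395 to 585 CPM in wild type A–F (median 463) and 289, 232 and 247 CPM in wild type G–I, a log2 fold change of −5.44 ± 0.35 (SE; edgeR adjusted p = 9.94e-40). X:17697094-17697655:-, 562 bases over an exon of the antisense RNA gene anr-17, had 1 count in dpf-3 null and none in DPF-3 S784A, mut-2 or mut-7, against 205 in wild type. It was at least 7.85-fold, 6.06-fold and 11.2-fold lower in DPF-3 S784A, mut-2 and mut-7. Against wild type G–I alone these bounds were 4.14-fold, 3.20-fold and 5.92-fold. X:7365534-7365718:+, 185 bases over an exon of C56G3.2, had 3 counts in dpf-3 null and none in DPF-3 S784A, against 326 in wild type, at least 12.5-fold lower in DPF-3 S784A. As anr-17 is an antisense gene and the strand of the counting is not known, reads on X:17697094-17697655:- and on its sense partner cannot be told apart. The intergenic X:3771299-3771862:-, 564 bases, had 2 counts in dpf-3 null worms and 359 in wild type.

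In the mutator mutants many long intervals had no reads left. The intergenic X:17123119-17127465:+, 4347 bases, had 16.9, 0 and 0 CPM in mut-2 and no count in mut-7. The A–F wild-type libraries had 985 to 1160 CPM (median 1069), and the G–I libraries 739, 772 and 738 CPM. With 0 counts against 2038 it was at least 112-fold lower in mut-7, and at least 92.9-fold against wild type G–I alone. X:15402206-15403811:+, an intergenic stretch of 1606 bases, had no count in mut-2 or mut-7 against 1036 in wild type, at least 30.6-fold and 56.7-fold lower. Against wild type G–I alone these bounds were 25.1-fold and 46.5-fold. The 191-base interval at srd-50, X:13481365-13481555:+, had 16.9, 0 and 0 CPM in mut-2 and no count in mut-7, against 695 to 884 CPM in wild type A–F (median 765) and 360, 248 and 337 CPM in wild type G–I, at least 67.5-fold lower in mut-7. Against wild type G–I alone that bound was 40.9-fold. The srd-50 row of the table itself had 1 count in all 21 libraries.

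Further intervals named for their fall in a mutator mutant had 0 or 1 count there. In mut-2 no count was left on X:3846485-3847361:+, which lies on the opposite strand to an intron of the homeobox gene ceh-18, on X:3770453-3770931:-, over an exon of the pseudogene WBGene00018537, on X:17014013-17015254:+ in an intron of F35B3.3, or on the intergenic X:17117193-17117378:+. They were at least 22.7-fold, 22.1-fold, 17.3-fold and 14.9-fold lower than the 9 wild-type libraries. Against wild type G–I alone the bounds at X:3770453-3770931:-, X:17014013-17015254:+ and X:17117193-17117378:+ were 14.2-fold, 14.1-fold and 10.1-fold. In mut-7 no count was left on X:62782-66072:- or X:17118957-17119600:+, over exons of the pseudogenes WBGene00022204 and WBGene00019575, at least 31.8-fold and 31.7-fold lower. For mut-2 the largest fold these bounds can show is limited by its depth of 40693 to 49934 feature counts per library, where 1 read is 12.6 to 16.9 CPM.

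Some tested intervals lay close together along X. In all, 5 loci held 3 or more tested intervals with gaps of at most 10000 bases; these took in 25 of the 67 and 30.5% of the X counts. Between 7345007 and 7365718, 7 plus-strand intervals together had 337 ± 27.7 CPM in dpf-3 null worms, 586 ± 27.7 in DPF-3 S784A worms, 58.3 ± 41.8 in mut-2 worms and 14.6 ± 17.0 in mut-7, against 2737 ± 233 CPM in wild type A–F and 1598 ± 10.6 in wild type G–I. Between 17117193 and 17129470, again on the plus strand, 7 intervals had 358 ± 56.6, 550 ± 66.5, 25.6 ± 18.9 and 12.5 ± 11.1 CPM in dpf-3 null, DPF-3 S784A, mut-2 and mut-7, against 3012 ± 212 CPM in wild type A–F and 1856 ± 95.2 in wild type G–I. Between 17689720 and 17712873, 4 minus-strand intervals had 228 ± 49.0, 298 ± 66.6, 76.6 ± 69.4 and 57.2 ± 25.3 CPM in dpf-3 null, DPF-3 S784A, mut-2 and mut-7, against 1879 ± 136 CPM in wild type A–F and 846 ± 34.1 in wild type G–I. The fourth of these loci, between 9191187 and 9203639, and the fifth, between 17074758 and 17078002, are described next and with the short intervals.

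The locus between 9191187 and 9203639 has a regular layout: intervals of 648 bases abut the 11157-base interval at its start and at its end, on the same strand. X:9191187-9191834:+ had 27.0, 5.72 and 14.6 CPM in dpf-3 null worms, 21.6, 32.1 and 84.1 CPM in DPF-3 S784A and no count in mut-2 or mut-7. Levels in wild type A–F were 225 to 294 CPM (median 255), and in wild type G–I 132, 154 and 116 CPM. X:9202992-9203639:+ had 22.5, 40.0 and 29.1 CPM in dpf-3 null worms, 32.4, 80.3 and 46.7 CPM in DPF-3 S784A, none in mut-2 worms and 0, 0 and 8.31 CPM in mut-7. Wild type A–F ranged over 123 to 341 CPM (median 269), and wild type G–I had 105, 67 and 124 CPM. On the TMM scaling the flanks were lower in wild type G–I than in A–F, with log2 fold changes of −0.99 and −1.31 (edgeR adjusted p = 1.39e-08 and 2.74e-12), and the middle was higher, at 2063 ± 107 CPM in G–I against 1749 ± 163 CPM in A–F (log2 fold change 0.24, edgeR adjusted p = 0.0117). With all reads in the table as the library size the flanks were at 0.23 and −0.10, neither past the threshold (adjusted p = 0.213 and 0.624, edgeR), and the middle at 1.46. The middle's call was lost with DESeq2 size factors, at 0.16 (edgeR adjusted p = 0.124). Whether the difference between flank and middle was itself larger than the error was not tested. Equal lengths recurred elsewhere: 8 X intervals were 1242 bases long, 4 of them tested, and these 8 had 262 ± 13.8, 241 ± 42.3, 36.5 ± 25.4 and 6.98 ± 6.42 CPM in dpf-3 null, DPF-3 S784A, mut-2 and mut-7, against 1509 ± 37.7 CPM in wild type A–F and 883 ± 103 in wild type G–I. Intervals of the same length may share sequence, and how reads with several positions were assigned is not given in the sources used here, so such members are not independent.

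**Figure D4:**
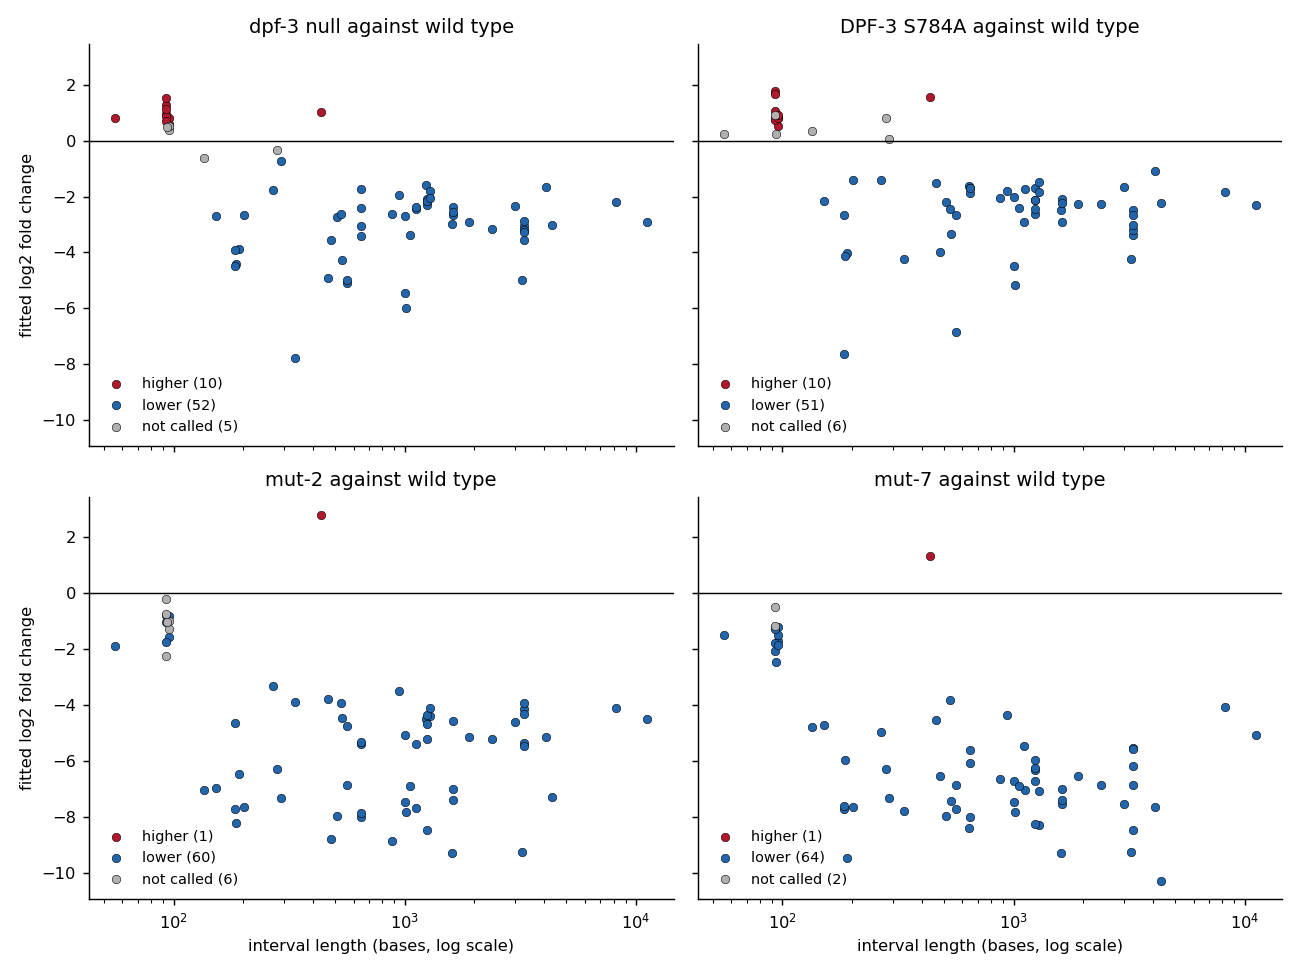
Fitted log2 fold change against wild type (mean of both sets) for each of the 67 tested X intervals by its length in bases, on a log axis, in 4 panels for dpf-3 null, DPF-3 S784A, mut-2 and mut-7. Points above 0 are intervals of 56 to 96 bases and the 435-base interval in dpf-3 null, with 3 uncalled longer intervals in DPF-3 S784A, and the 435-base interval alone in mut-2 and mut-7.

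Intervals under 100 bases behaved otherwise. There were 12 tested, all of 56 to 96 bases, 6 of them exactly 93 and 4 exactly 96 bases long. They lay in groups. On the plus strand were X:16212617-16212709 and X:16213384-16213476 over exons of F23A7.4 and F23A7.8, and X:1654438-1654533 over an exon of ZK380.6 with X:1657395-1657490 near it. On the minus strand were X:1675294-1675389, X:1998939-1999034 over an exon of the non-coding RNA gene Y40A1A.6, and the pair X:17399918-17400010 and X:17400536-17400628. Also on the minus strand were X:17074758-17074813, X:17075115-17075207, X:17075554-17075646 and X:17077909-17078002, of which only the last was at irld-23. The table lists 43 X intervals of 93 bases and 44 of 96, with 226 and 204 more on the autosomes.

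Summed, the 12 had 1833, 1630 and 2185 CPM in dpf-3 null worms, 1568, 2137 and 2075 CPM in DPF-3 S784A worms, 473, 453 and 584 CPM in mut-2 worms and 283, 372 and 449 CPM in mut-7. The A–F wild-type libraries had 1088 to 1378 CPM (median 1258), and the G–I libraries 923, 1004 and 848 CPM. The protease mutants lay above every wild-type library and the mutators below. The limit of 100 bases was not among the planned length classes and was drawn with the values known. The calls of the 12 are therefore description only. Of the 12, 9 were higher in dpf-3 null worms and 9 in DPF-3 S784A with none lower, where 26.1% and 14.8% of all features were higher. In the planned class under 200 bases, 18 were tested, with 9 higher and 5 lower in each protease mutant. Among all features 26.2% and 23.9% were lower. The 6 tested intervals of 100 to under 200 bases had 0 higher and 5 lower in each. In mut-2 and mut-7, 6 and 10 were lower with none higher, where 33.2% and 35.3% of all features were lower. Against wild type A–F alone 6 and 4 were higher in dpf-3 null and DPF-3 S784A (21.9% and 10.7% of all features), and against G–I alone 12 and 10 (25.4% and 18%). Of the 15 tested autosomal intervals under 100 bases, 4 were higher and 8 lower in dpf-3 null worms and 3 higher and 8 lower in DPF-3 S784A; in mut-2 5 were higher and 9 lower, and in mut-7 6 and 9.

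The largest rise in dpf-3 null was at X:17400536-17400628:-, an intergenic stretch of 93 bases. It had 63.1, 103 and 65.6 CPM in dpf-3 null worms and 75.7, 80.3 and 93.5 CPM in DPF-3 S784A. Levels in wild type A–F were 8.00 to 34.3 CPM (median 28.4), and in wild type G–I 34.4, 19.7 and 19 CPM. Its log2 fold change was 1.52 ± 0.33 (SE) in dpf-3 null (edgeR adjusted p = 1.82e-05) and 1.65 ± 0.42 in DPF-3 S784A (adjusted p = 0.000395). These levels rest on 9 to 18 counts per dpf-3 null library and 5 to 10 per DPF-3 S784A library. The pair's other interval, X:17399918-17400010:-, had 54.1, 57.2 and 58.3 CPM in dpf-3 null worms and 64.9, 112 and 93.5 CPM in DPF-3 S784A, against 22.9 to 63.1 CPM in wild type A–F (median 39.3) and 20.2, 11.8 and 16.9 CPM in wild type G–I; in dpf-3 null it overlapped wild type A–F.

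Some short intervals with deeper counts had smaller rises with smaller errors. X:16213384-16213476:+ had 270, 275 and 415 CPM in dpf-3 null worms, 270, 466 and 318 CPM in DPF-3 S784A worms, 84.5, 88.0 and 110 CPM in mut-2 worms and 21, 88.4 and 83.1 CPM in mut-7. Wild type A–F ranged over 96.0 to 241 CPM (median 167), and wild type G–I had 123, 205 and 122 CPM. Its log2 fold change was 0.96 ± 0.16 (SE) in dpf-3 null (edgeR adjusted p = 4.91e-08) and 1.07 ± 0.20 in DPF-3 S784A (adjusted p = 1.59e-06). The neighbouring X:16212617-16212709:+ rose by 0.90 ± 0.18 in dpf-3 null (adjusted p = 4.89e-06) and 0.81 ± 0.24 in DPF-3 S784A (adjusted p = 0.00311, edgeR). X:1657395-1657490:+, 291 bases from the T-box gene tbx-32, had 324, 280 and 328 CPM in dpf-3 null worms and 303, 386 and 271 CPM in DPF-3 S784A, against 152 to 270 CPM in wild type A–F (median 225) and 138, 173 and 110 CPM in wild type G–I, and rose by 0.82 ± 0.16 and 0.82 ± 0.20 (edgeR adjusted p = 1.02e-06 and 0.000252). X:1654438-1654533:+, also called higher in both, overlapped wild type A–F in both. It had 320, 217 and 313 CPM in dpf-3 null worms and 260, 273 and 290 CPM in DPF-3 S784A. Wild type A–F ranged over 170 to 279 CPM (median 193), and wild type G–I had 168, 173 and 156 CPM.

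Between 17074758 and 17078002 the calls differed between the protease mutants. X:17075554-17075646:- rose in dpf-3 null by 1.29 ± 0.28 (edgeR adjusted p = 2.53e-05), with 81.1, 68.6 and 160 CPM in dpf-3 null worms and 64.9, 64.3 and 93.5 CPM in DPF-3 S784A. The A–F wild-type libraries had 32.2 to 54.7 CPM (median 39.7), and the G–I libraries 30.4, 51.2 and 38.0 CPM. In DPF-3 S784A its log2 fold change was 0.93 ± 0.40 (adjusted p = 0.0512). X:17075115-17075207:- rose in both, by 0.69 ± 0.20 (adjusted p = 0.00223) and 0.75 ± 0.26 (adjusted p = 0.0146, edgeR). Outside that locus, X:1675294-1675389:- was called in DPF-3 S784A alone, at 0.81 ± 0.31 (adjusted p = 0.0274), beside 0.36 ± 0.26 in dpf-3 null (adjusted p = 0.233, edgeR). The 4 intervals between 17074758 and 17078002 summed to 429 ± 115 CPM in dpf-3 null worms, 366 ± 114 in DPF-3 S784A worms, 105 ± 89.3 in mut-2 worms and 66.9 ± 31.1 in mut-7, against 260 ± 47.4 CPM in wild type A–F and 217 ± 10.6 in wild type G–I. None of the 12 short intervals was called different between dpf-3 null and DPF-3 S784A with edgeR, and 0 had an unadjusted p under 0.05.

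The direction at the short intervals depended on scaling. Per 1000000 reads in the table, the 12 summed to 391 ± 36.2 in dpf-3 null worms, 330 ± 51.4 in DPF-3 S784A worms, 74.1 ± 12.2 in mut-2 worms and 79.6 ± 15.1 in mut-7, against 208 ± 24.1 in wild type A–F and 362 ± 29.8 in wild type G–I (SD). On that scaling 5 and 3 of the 12 were higher in dpf-3 null and DPF-3 S784A, 9 and 4 against wild type A–F alone and 0 and 1 against G–I alone. Per 1000000 feature counts with no TMM factor, they summed to 1872 ± 289, 1864 ± 313, 760 ± 98.3 and 576 ± 121 in dpf-3 null, DPF-3 S784A, mut-2 and mut-7, against 672 ± 67.3 in wild type A–F and 781 ± 68.3 in wild type G–I. With such library totals 12 and 10 were higher in dpf-3 null and DPF-3 S784A, and none was lower in mut-2 or mut-7, where 7 and 3 had a positive log2 fold change. Library totals move the median log2 fold change of all features to 0.74, 0.59, 1.16 and 1.34 in dpf-3 null, DPF-3 S784A, mut-2 and mut-7, and the reads in the table move it to −0.10, −0.50, −0.79 and −0.10.

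A 435-base interval, X:17578693-17579127:-, over an exon of the protein-coding gene F39B3.3 and on its strand, was the only tested X interval called higher in all 4 mutants, as were 4.62% of all features. It had 910, 1070 and 750 CPM in dpf-3 null worms, 1384, 1221 and 1365 CPM in DPF-3 S784A worms, 3632, 3446 and 2445 CPM in mut-2 worms and 892, 1054 and 1454 CPM in mut-7. Levels in wild type A–F were 623 to 1334 CPM (median 896), and in wild type G–I 231, 197 and 217 CPM. Only mut-2 lay above every wild-type library, and the other mutants overlapped wild type A–F. The log2 fold change against the mean of both sets was 1.01 ± 0.12 (SE) in dpf-3 null worms, 1.55 ± 0.13 in DPF-3 S784A worms, 2.80 ± 0.11 in mut-2 worms and 1.32 ± 0.12 in mut-7 (edgeR adjusted p = 1.01e-14, 5.95e-25, 4.81e-71 and 1.05e-21).

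The wild-type set decided 2 of these 4 calls. Against wild type A–F alone the values were −0.06 (adjusted p = 0.712), 0.48 (adjusted p = 0.000919), 1.74 (adjusted p = 7.59e-38) and 0.26 (adjusted p = 0.0578) in dpf-3 null, DPF-3 S784A, mut-2 and mut-7. Against wild type G–I alone they were 2.07, 2.61, 3.86 and 2.39, each past the threshold with edgeR. With the 9 wild-type libraries fitted as 1 group, of the 4 values only that of mut-2 kept its call, at 2.18 (edgeR adjusted p = 9.59e-05), and the others were 0.38, 0.92 and 0.70 in dpf-3 null, DPF-3 S784A and mut-7 (adjusted p = 0.514, 0.116 and 0.166). The rise in mut-2 was 1.54 against A–F and 2.45 against G–I with all reads in the table as the library size. Its call held under the 22 alternatives checked for it, not all of which compared it with the mean of both sets. This interval made up 57.9% ± 8.45 of the X counts in mut-2 worms and 42.8% ± 3.35 in mut-7 worms, 10.4% ± 2.08 in dpf-3 null worms and 11% ± 1.16 in DPF-3 S784A, against 2.85% ± 0.816 in wild type A–F and 1.19% ± 0.0707 in wild type G–I. As the X interval with the most reads in both mutators, it set the strand and exon shares there: minus-strand intervals held 72.9% ± 3.90 of the X counts in mut-2, against 25.8% ± 2.24 in wild type, and with it left out 35.0%, against 24.1% in wild type. With the interval kept, the minus-strand share in wild type was 27.2% in A–F and 23.1% in G–I.

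**Figure D5:**
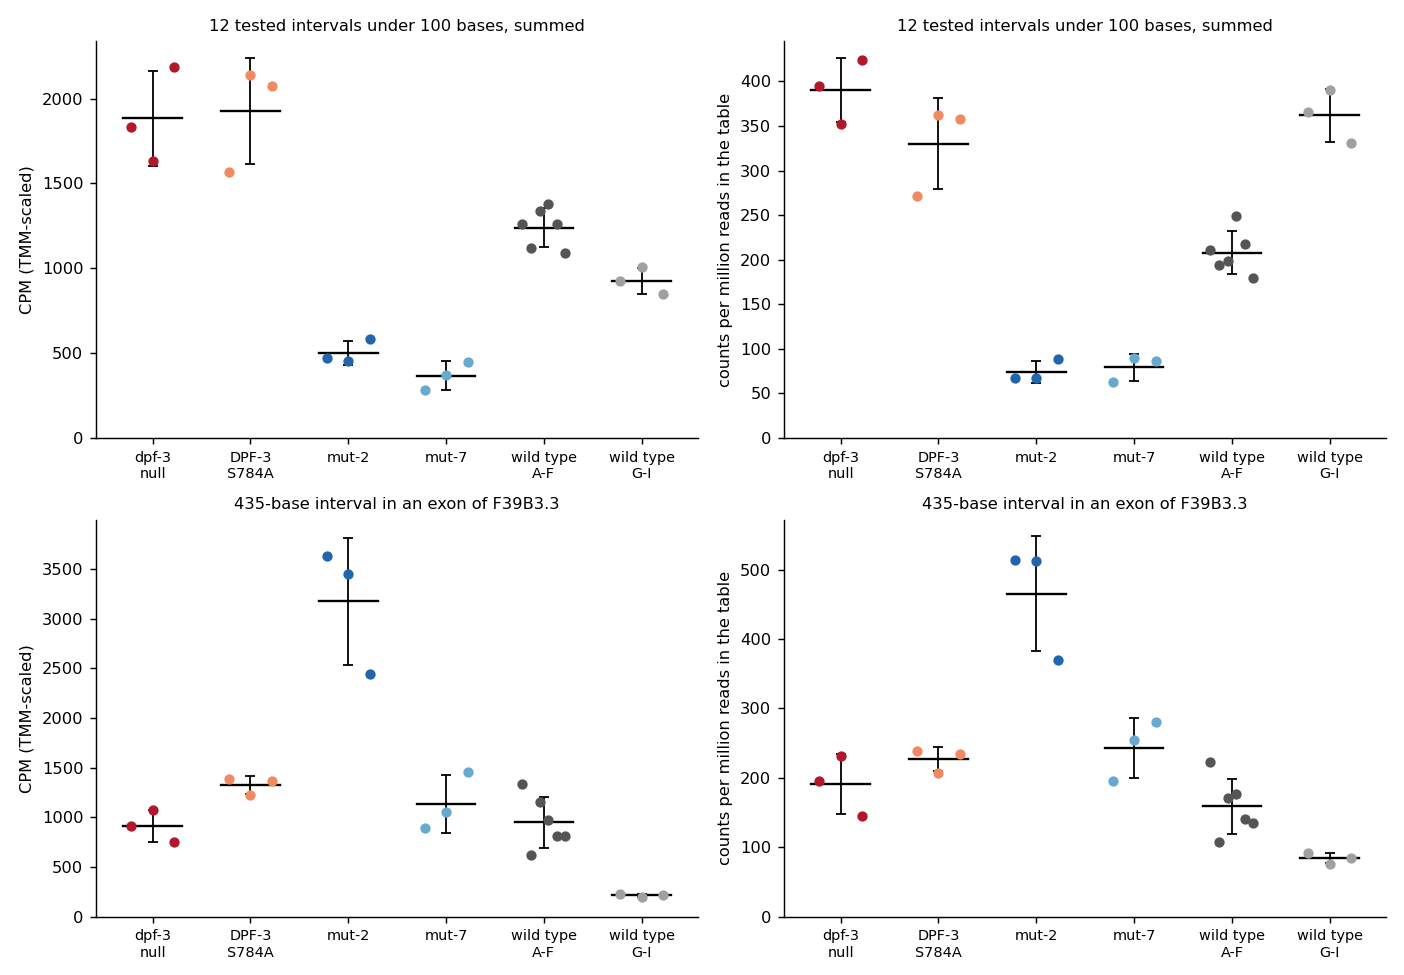
Summed level of the 12 tested X intervals under 100 bases (top) and level of the 435-base interval over an exon of F39B3.3 (bottom), 1 point per library with group mean and SD, as TMM-scaled CPM (left) and as counts per 1000000 reads in the table (right). The short intervals lie above both wild-type sets in dpf-3 null and DPF-3 S784A on the left and near wild type G–I on the right, and the 435-base interval has its highest values, 2445 to 3632 CPM, in mut-2.

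The overlap of X intervals with introns and exons shifted in small steps apart from this interval. It overlaps an exon and was left out after its values were seen, so the p-values without it are description only. With it left out, exon intervals held 33.3%, 31.9%, 32.6% and 31.0% of the X counts in dpf-3 null, DPF-3 S784A, mut-2 and mut-7, against 36.6% in wild type (adjusted p = 0.0100 each, exact permutation), and intron intervals 25.7%, 25.2%, 28.5% and 25.5%, against 20.6% (adjusted p = 0.0100 each, exact permutation). The intergenic share was 41.0%, 42.9%, 38.9% and 43.4% in dpf-3 null, DPF-3 S784A, mut-2 and mut-7, against 42.9% in wild type, and passed the threshold in dpf-3 null alone. With it kept, exon intervals held 71.6% ± 5.88 in mut-2 worms and 60.6% ± 2.57 in mut-7, against 38.0% ± 1.49 in wild type. The wild-type mean was 37.2% in A–F and 39.8% in G–I.

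Few intervals separated the S784A substitution from the null. Of the 67, 2 were called lower in dpf-3 null than in DPF-3 S784A and none higher, where 1.93% and 0.556% of all features were; at an unadjusted p under 0.05, 15 were lower and 0 higher, and DESeq2 and limma-voom also called 0 higher. They were the F38E9.4 interval X:16451872-16455957:+ (log2 fold change −0.57 ± 0.17, SE, edgeR adjusted p = 0.0377) and the F39B3.3 interval X:17578693-17579127:- (−0.54 ± 0.15, adjusted p = 0.0156). Both calls were lost with all reads in the table as the library size, and leaving out any 1 of the 6 libraries left 0 or 1 of them. The summed level of the tested intervals was lower in dpf-3 null, at 5704 CPM against 7412 CPM. Between the mutators, 1 was higher in mut-2 than in mut-7, the F39B3.3 interval at 1.48 ± 0.13 (edgeR adjusted p = 5.96e-21), where 2.58% of all features were higher and 1.91% lower. At an unadjusted p under 0.05, 7 were higher in mut-2 and 0 lower, and limma-voom called 4 higher. Of the 67, 50 had 3 or fewer counts over the mut-2 libraries and 51 over the mut-7 libraries.

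The wild-type sets also differed from each other. Of the 67, 57 were lower in wild type G–I than in A–F and 1 was higher on the TMM scaling, where 33.5% and 17.7% of all features were. With all reads in the table as the library size, 2 were lower and 35 higher, and with library totals 19 were lower and 2 higher, so no direction common to the 67 can be given for the sets. Over all features the median log2 fold change between the sets was −0.13 with TMM, 1.07 with all reads and 0.53 with library totals. The F39B3.3 interval was lower in G–I by 2.13 ± 0.13 on the log2 scale with TMM, by 0.91 with all reads and by 1.46 with library totals, each past the threshold (edgeR). The next in size were X:14091981-14093598:+, over an exon of dsl-4, a member of the family of Notch ligands, at −2.11 ± 0.22 (adjusted p = 9.11e-18), and X:5222636-5223920:- in an intron of H28G03.3, at −1.57 ± 0.22 (adjusted p = 2.88e-11, edgeR). With all reads these were −0.90 (adjusted p = 0.000288) and −0.36 (adjusted p = 0.135, edgeR). What set the libraries apart is not stated in the labels, and its part in the comparisons was not tested; the values against each set stand above.

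Genes of the small RNA pathway were themselves counted as small RNA targets. Of a list of 45 names, 43 were rows of the table and 37 were tested. In dpf-3 null 22 were higher and 3 lower, 1 of them dpf-3 itself, where 26.1% of all features were higher and 26.2% lower. In DPF-3 S784A 11 were higher and 2 lower, beside 14.8% and 23.9% of all features. In mut-2 there were 9 higher and 7 lower, beside 18.8% and 33.2%, and in mut-7 12 and 8, beside 29.3% and 35.3%. The median log2 fold change was 0.51, 0.38, 0.26 and 0.32 in dpf-3 null, DPF-3 S784A, mut-2 and mut-7 on the TMM scaling, beside 0.20, 0.08, 0.01 and 0.14 over all features. Only nrde-3, the nuclear Argonaute of somatic cells, lies on X among them, and it was not tested.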

How the data were processed

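Small RNAs of 21 libraries of whole C. elegans L4 larvae were sequenced after treatment with an RNA 5′ polyphosphatase, per the labels' protocols. The authors deposited whole-number read counts for each feature in each library, and these were used without change. The tools, per the submitters' processing notes, were cutadapt 2.3, Bowtie 1.2.3, SAMtools 1.9 and HTSeq 0.11.2 with the ce11 assembly; the sources used here do not state the strand setting, where the intervals came from or how reads with several positions were handled. The 5 summary rows of the table stayed out of library sizes and tests, and the reads they hold in no feature were 53.1% to 90.7% of a library. Coordinates are those of the file (ce11), annotated with Ensembl WBcel235, the same assembly; no sequence is shown.

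Counts were fitted with edgeR 4.0.16 (TMM, filterByExpr, glmQLFit and glmQLFTest; 5038 features) with 6 library groups, wild type A–F and G–I apart, and adjusted p-values run over all 5038. Shares were compared with exact permutation tests (scipy 1.17.1). CPM is counts per 1000000 of effective library size. Zero counts were bounded at 3 counts over a group, and the 95% intervals cover counting error only, and whether molecular identifiers were used in counting is not stated. Named intervals are the 12 highest in wild type and, per mutant, up to 6 called rises and 6 falls at 10 CPM or more in the higher group with no overlap between mutant and wild-type libraries, plus up to 3 each for the remaining comparisons. Intervals called higher outside that rule, the abutting 648-base pair and the loci were chosen after their values were seen. The members and lists were chosen with earlier results of these data known. The 30 pairs of libraries within a group were compared and none was identical (chi-square per feature 1.07 to 1.81). The fit was tested on simulated data. Alternatives were DESeq2 1.42.0, limma 3.58.1, other scalings, filters, wild-type sets and leaving out each library.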

Additional observations from a re-analysis of the deposited data

Results flagged for a closer look

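Of 90 sets of values checked for a library far from the rest of its group, 2 stood out, and chance alone marks about 1 in 20. At X:17117379-17118496:+, 1118 bases over an exon of K09E3.2, wild-type library B had 655 CPM, against 495 to 544 CPM in the other libraries of the A–F set. At X:5222636-5223920:-, in an intron of H28G03.3, wild-type library A had 82.1 CPM, against 158 to 202 CPM in the others of that set; this interval was named above for its difference between the wild-type sets.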

How the results depend on the processing

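The direction of the fall of X intervals held under the scalings, filters and tools tried, while the number of rises in the protease mutants and the X share of interval counts in the mutators did not. Of the checks on summary values 355 were unchanged in direction and in side of the threshold, 59 moved beyond 1.5 times or beyond the replicate spread, 10 lost the threshold and 4 turned; of those on single intervals 1799 were unchanged, 88 lost the threshold, 2 gained it and 12 turned. In dpf-3 null the 10 rises became 6 with DESeq2 size factors, with all reads as library size, with DESeq2 or against wild type A–F, and the 52 falls became 110 with no filter, where more intervals were tested. In DPF-3 S784A the 10 rises became 5 with wild type as 1 group, DESeq2 size factors, DESeq2 or wild type A–F, and 4 with all reads; leaving out libraries gave 6 to 12, and the 51 falls became 77 with no filter. Falls with no filter were 128 in mut-2 worms and 182 in mut-7, and the single rise in mut-7 became 0 with wild type as 1 group or against A–F. Between dpf-3 null and DPF-3 S784A the 2 falls became 0 with wild type as 1 group, all reads or no filter, 4 with DESeq2 and 1 with limma-voom, and 0 to 1 without a library. Between mut-2 and mut-7 the 1 rise became 0 with wild type as 1 group, 4 with limma-voom and 1 to 3 without a library. Between wild type G–I and A–F the 1 rise became 0 with DESeq2 or its size factors, 35 with all reads, 2 with library totals or a stricter filter, 7 with no filter and 0 to 1 without a library, and the 57 falls became 2 with all reads, 19 with library totals and 118 with no filter. The cause of these changes was not tested.

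Against wild type G–I alone, where the exact permutation p cannot go below 0.10, the X share of feature counts differed by −0.648, −0.356, −0.700 and −1.11 percentage points in dpf-3 null, DPF-3 S784A, mut-2 and mut-7 and the X share of interval counts by 3.26, 3.98, 4.12 and 2.46 points. The share of interval counts differed by 1.86 points in mut-2 worms and 0.760 in mut-7 over intervals under 1000 bases (adjusted p = 0.0519 and 0.155, exact permutation), by −1.32 and −2.78 without chromosome V, and by −2.47 and −1.45 without the 435-base interval; both settings were chosen after seeing the data. Without that interval the exon share differed by −3.23, −4.63, −3.94 and −5.52 points in dpf-3 null, DPF-3 S784A, mut-2 and mut-7, the intron share by 7.92 in mut-2 worms and 4.94 in mut-7, and the intergenic share by 0.0397 in DPF-3 S784A and 0.578 in mut-7. Against G–I alone the exon share differed by −0.383 points in DPF-3 S784A.

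Mutant libraries A to C did not deviate together with the wild-type libraries of the same letter (correlations −0.0414 to 0.0631 over 12 pairs), so these letters were not treated as pairs. Wild-type libraries G to I share no letter with a mutant library and could not be checked in this way. A fit with the letter as a replicate block, on libraries A to C of each genotype, gave 1 rise in dpf-3 null, 1 in DPF-3 S784A and 0 in mut-7, and 39 falls in mut-2 worms and 40 in mut-7; without the block the same libraries gave 1, 1 and 0 rises, 34 falls in dpf-3 null, and 39 and 40 falls in mut-2 and mut-7. The 435-base interval had a log2 fold change of −0.35 in dpf-3 null with the block, and of −0.36 in dpf-3 null and −0.012 in mut-7 without it. In mut-2, with 40693 to 49934 feature counts per library, a single read is 12.6 to 16.9 CPM, so smaller levels are not detectable there.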
